A study of Mus musculus with 6 samples.

Results

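A total of 36 mouse genes were examined: 20 genes for cytosolic aminoacyl-tRNA synthetases, 6 genes for ATF4 and its stress regulators, 6 genes of serine, asparagine and proline synthesis, and 4 genes of folate one-carbon metabolism. The genes were taken by symbol from the deposited table, which lists 29872 genes. All 36 were present in it, and all 36 had enough counts to be tested. The comparison was between 3 libraries labelled CML (chronic myeloid leukaemia) and 3 libraries labelled WT (wild type). Both groups share the C57BL/6 background, the bone marrow source, the Lin-Sca1+cKit+CD150+ gate of blood stem cells, the lack of drug treatment and expansion ex vivo. The labels name no allele, transgene or inducer for CML and no age of the mice, so what limits the cells as a model is not stated in them. The series as a whole set leukaemic cells beside normal stem and progenitor cells.

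Aminoacyl-tRNA synthetases join each amino acid to its transfer RNA and so feed translation. Part of the cytosolic enzymes sit together in a multisynthetase complex. ATF4 is a transcription factor whose protein is made mainly when the initiation factor eIF2 is phosphorylated by one of its kinases, for example GCN2 on amino acid shortage or PERK on stress of the endoplasmic reticulum. Its known targets include many synthetase genes, the serine pathway, Asns and the mitochondrial folate enzymes, and it often acts with a C/EBP partner on a composite DNA element. Serine made by this pathway passes one-carbon units to folate, which nucleotide synthesis uses. RNA levels of Atf4 do not show how much ATF4 protein is made.

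The composite element was searched as TGATGNAA, with its reverse complement TTNCATCA, in promoter windows of 300 bases (250 before and 50 after the start of a gene, RefSeq, build GRCm38.p6). A window was listed for 29 of the 36 genes. The element was present in 9 of these 29 genes (31.0%), against 1219 of the 27025 genes with a window (4.51%) and 1304 of all 32851 windows (3.97%). It was found in 5 of 13 synthetase genes, 2 of 6 stress regulators, 2 of 6 amino acid synthesis genes and none of the 4 folate genes. A match describes letters in a window and is no evidence of binding in these cells. By this count the element was present in 3 of the 7 genes with a window that were lower in CML (below) and in 6 of the 22 that did not pass the test.

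The stretches around the element are shown for the 3 genes that were both lower in CML and hold it, to show the same core in synthetase and proline genes. Asns, Chac1 and Trib3 are added as well-known ATF4 targets that did not pass the test. They were chosen after their values were seen. Each sequence runs 5′ to 3′ on the strand of the gene, with the element in capitals. TGATG at the start of the capitals marks the forward form, and CATCA at their end the reverse form.

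Pycr1, chr11:120643814-120643881, minus strand, element 103 bases before the start: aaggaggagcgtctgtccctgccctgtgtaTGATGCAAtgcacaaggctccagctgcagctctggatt

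Gars, chr6:55037941-55038008, plus strand, element 30 bases before the start: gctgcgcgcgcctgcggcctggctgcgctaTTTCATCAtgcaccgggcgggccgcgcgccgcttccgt

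Iars, chr13:49682107-49682174, plus strand, element at base 8 after the start: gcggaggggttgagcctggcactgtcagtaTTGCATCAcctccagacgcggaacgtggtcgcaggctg

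Asns, chr6:7693195-7693262, minus strand, element 23 bases before the start: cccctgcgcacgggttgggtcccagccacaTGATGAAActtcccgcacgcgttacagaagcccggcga

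Chac1, chr2:119351019-119351086, plus strand, element 193 bases before the start: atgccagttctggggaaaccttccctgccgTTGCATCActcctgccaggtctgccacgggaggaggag

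Trib3, chr2:152344011-152344076, minus strand, element at base 15 after the start: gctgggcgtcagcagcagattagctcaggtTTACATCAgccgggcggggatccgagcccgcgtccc

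Of the 36 genes, 9 were lower in CML, none was higher and 27 did not pass the test, while with scaling by library totals alone the same test called 3 lower and 2 higher. The 9 were Psat1, Shmt1, Pycr1 and the synthetase genes Rars, Iars, Dars, Wars, Farsb and Gars. A gene was called at an adjusted p under 0.05 in the edgeR quasi-likelihood test, with adjustment over all 16221 tested genes. Among all of these, 7.20% were called lower and 10.2% higher. The share of the listed genes called lower was 25.0%. At an unadjusted p under 0.05 in edgeR, 11 of the 36 were lower and 2 higher, beside 5144 of all 16221 tested genes in either direction. DESeq2 and limma-voom called none of the 36 higher. Folds among the 9 were modest, from 1.28 to 1.62 times as much RNA in WT as in CML. The median log2 fold change (CML minus WT) of the 36 genes was -0.10, beside -0.00 over all tested genes, with single values from -0.70 to 0.34. The median of the 36 was -0.0015 with scaling by library totals alone, where that of all genes was 0.09, and -0.00070 without WT replicate 3.

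Levels are given as CPM, counts scaled to library size (the cpm function of edgeR, with TMM factors). The groups did not overlap for 14 of the 36 genes: 12 were lower in each CML library (33.3%, against 16.5% of all tested genes) and 2 were higher in each CML library (against 18.5% of all tested genes). Those 2 were Aars and Ddit4, and neither passed the test. The summed level of the 36 genes was 5691, 4968 and 5562 CPM in CML replicates 1 to 3, and 6204, 5764 and 6500 CPM in WT replicates 1 to 3. In these bulk libraries, fewer cells of a type and less RNA per cell cannot be told apart.

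**Figure D1:**
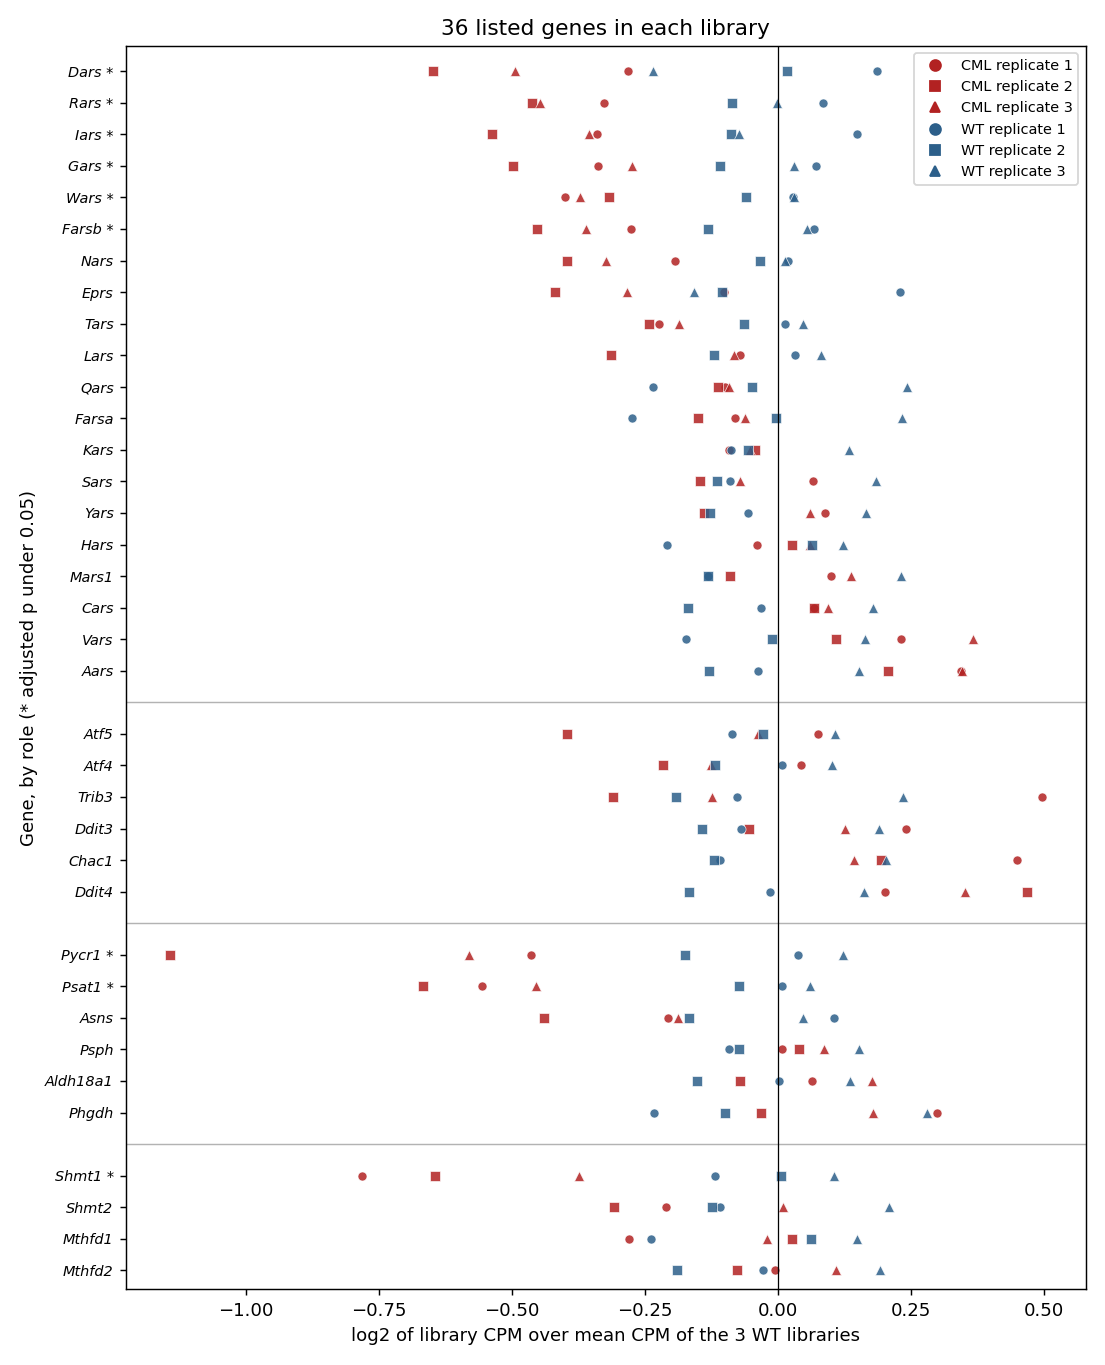
Each symbol is 1 library: its CPM over the mean CPM of the 3 WT libraries, on a log2 axis, with the 36 genes in rows grouped by role (synthetases, stress regulators, amino acid synthesis, folate enzymes). The starred genes are the 9 that passed the test, and their CML symbols all lie to the left of the WT symbols. CML replicate 2 is often the leftmost.

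Facts of the libraries that touch these results were as follows. Library totals were 13323552 to 15433562 counts in CML and 15930648 to 17926866 in WT. Among all tested genes, 1652 were higher and 1168 lower in CML, and with scaling by library totals alone 2065 were higher and 732 lower. The gate genes Kit, Ly6a and Slamf1 were measured in both groups, with Kit at a mean of 309 CPM in CML and 292 in WT. Ly6a, which encodes Sca1, was at 81.7, 172 and 65.3 CPM in CML and 40.0, 52.4 and 64.2 CPM in WT, without overlap, and did not pass the test (log2 fold change 1.03, edgeR adjusted p 0.173). Of 7 stem cell markers, 3 were called lower in CML, none higher and 4 were not called. Slamf1, which encodes the CD150 of the gate, and Hlf were among the 3, at means of 14.2 and 18.8 CPM against 24.7 and 48.0 CPM in WT. For Slamf1 the groups overlapped, at 11.2, 19.2 and 12.1 CPM in CML and 23.6, 31.8 and 18.7 CPM in WT (edgeR adjusted p 0.0470). Markers of mast cells and basophils had positive log2 fold changes for 10 of 10 genes tested, of which 5 were called higher. Their summed level was 2073 to 7289 CPM in CML against 184 to 375 in WT. Markers of monocytes and macrophages were called higher for 4 of 7 tested genes, with sums of 349.8 to 413 CPM in CML against 233 to 287 in WT. Summed erythroid markers were at 22.8 to 82.0 CPM in CML and 207 to 230.1 in WT. The part of these other cell types in the results on the 36 genes was not tested. Of 8 lymphoid markers, 6 had too few counts to test, among them Cd79a, Cd3e, Cd3g, Rag1 and Ebf1. Cd79b was called higher in CML (27.0 to 35.6 CPM against 9.15 to 13.0 CPM, log2 fold change 1.51, edgeR adjusted p 9.19e-05), and Nkg7 was tested and not called.

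For the cytosolic synthetases, 6 of 20 were lower in CML and none was higher, while with scaling by library totals alone none was lower and 1 (Aars) was higher. At an unadjusted p under 0.05 in edgeR, 7 were lower and 1 higher, beside 5144 of all 16221 tested genes in either direction. DESeq2 and limma-voom called no synthetase of the 20 higher. The median log2 fold change was -0.13, with 14 negative and 6 positive values between -0.47 and 0.30. It ran from -0.18 to -0.053 (without WT replicate 3) with 1 library left out, and was -0.031 with library totals alone. Their summed level was 3004, 2648 and 2912 CPM in CML replicates 1 to 3, and 3399, 3116 and 3356 CPM in WT replicates 1 to 3. The sums of the groups did not overlap. Mean levels per kilobase of the longest coding transcript ran from 15.3 CPM for Hars to 126 CPM for Gars, so the set spans less than a factor of 10.

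Gars encodes glycyl-tRNA synthetase, which serves both cytosol and mitochondrion, and lies on chromosome 6 (55038007 to 55079500). It had the highest mean level per kilobase of the 20. It measured 267, 239 and 279 CPM in CML replicates 1 to 3 and 355, 313 and 345 CPM in WT replicates 1 to 3. Every CML library lay below every WT library. The means were 262 ± 20.5 in CML and 338 ± 21.7 in WT (SD, n = 3 each), a log2 fold change of -0.37 (SE 0.11) with an edgeR adjusted p of 0.0426.

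Dars, for aspartyl-tRNA synthetase, followed Gars in level, at 116 CPM per kilobase, and lies on chromosome 1 (128363707 to 128417368). It measured 241, 187 and 208 CPM in CML and 333, 296 and 249 CPM in WT. The gap between the groups was narrow, since the highest CML library (241) came close to the lowest WT library (249). The log2 fold change was -0.47 (SE 0.14), the most negative among the synthetases, with an edgeR adjusted p of 0.0334. Means were 212 ± 27.3 and 293 ± 42.2 CPM (SD, n = 3 each).

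Iars, for isoleucyl-tRNA synthetase on chromosome 13 (49682100 to 49734267), measured 315, 275 and 312 CPM in CML and 442, 376 and 379 CPM in WT. The groups did not overlap, and WT replicate 1 was the highest of all. Its log2 fold change was -0.41 (SE 0.12), edgeR adjusted p 0.0317. Rars, for arginyl-tRNA synthetase on chromosome 11 (35808381 to 35834506), measured 41.3, 37.6 and 38.0 CPM in CML and 54.9, 48.7 and 51.7 CPM in WT. The CML values lay close together, and all were below the WT values. Its log2 fold change was -0.41 (SE 0.11), edgeR adjusted p 0.0269.

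Wars, for tryptophanyl-tRNA synthetase on chromosome 12 (108860030 to 108894174), measured 58.3, 61.7 and 59.4 CPM in CML and 78.4, 73.8 and 78.5 CPM in WT. It had a small spread within each group, with SDs of 1.74 and 2.69 CPM. Its log2 fold change was -0.36 (SE 0.11), edgeR adjusted p 0.0342. Farsb, for the beta subunit of phenylalanyl-tRNA synthetase on chromosome 1 (78417975 to 78488897), measured 95.1, 84.2 and 89.8 CPM in CML and 121, 105 and 119.7 CPM in WT. Again no CML library reached a WT library, with a log2 fold change of -0.36 (SE 0.11) and an edgeR adjusted p of 0.0414. Farsa, for the alpha subunit of the same enzyme, did not pass the test (log2 fold change -0.10, edgeR adjusted p 0.669). Whether the 2 subunits differ in their change was not tested.

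Aars and Nars missed the threshold but did not overlap between groups. Nars, for asparaginyl-tRNA synthetase, measured 303, 263 and 277 CPM in CML and 351, 338 and 349.9 CPM in WT. All WT libraries were above all CML libraries (log2 fold change -0.30, SE 0.11, edgeR adjusted p 0.0754). Aars, for alanyl-tRNA synthetase, lay the other way, at 190.3, 173 and 190.3 CPM in CML and 146, 137 and 167 CPM in WT. Its log2 fold change was 0.30 (SE 0.12), edgeR adjusted p 0.0916, and it was the most positive value among the synthetases.

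The remaining synthetases that did not pass the test were Cars, Eprs, Farsa, Hars, Kars, Lars, Mars1, Qars, Sars, Tars, Vars and Yars. Their log2 fold changes ran from -0.26 (Eprs) to 0.24 (Vars). Tars, for threonyl-tRNA synthetase, was the only one of these 12 whose groups did not overlap (log2 fold change -0.22, edgeR adjusted p 0.174). Several symbols overlap another gene on the genome and the strand setting is not given in the sources used here. This makes the values of Hars, which overlaps Hars2 by 198 bases, Farsb, which overlaps Sgpp2 by 2315 bases, Wars, which overlaps Wdr25 by 544 bases, and Aars, which overlaps Exosc6 by 1326 bases, less certain.

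**Figure D2:**
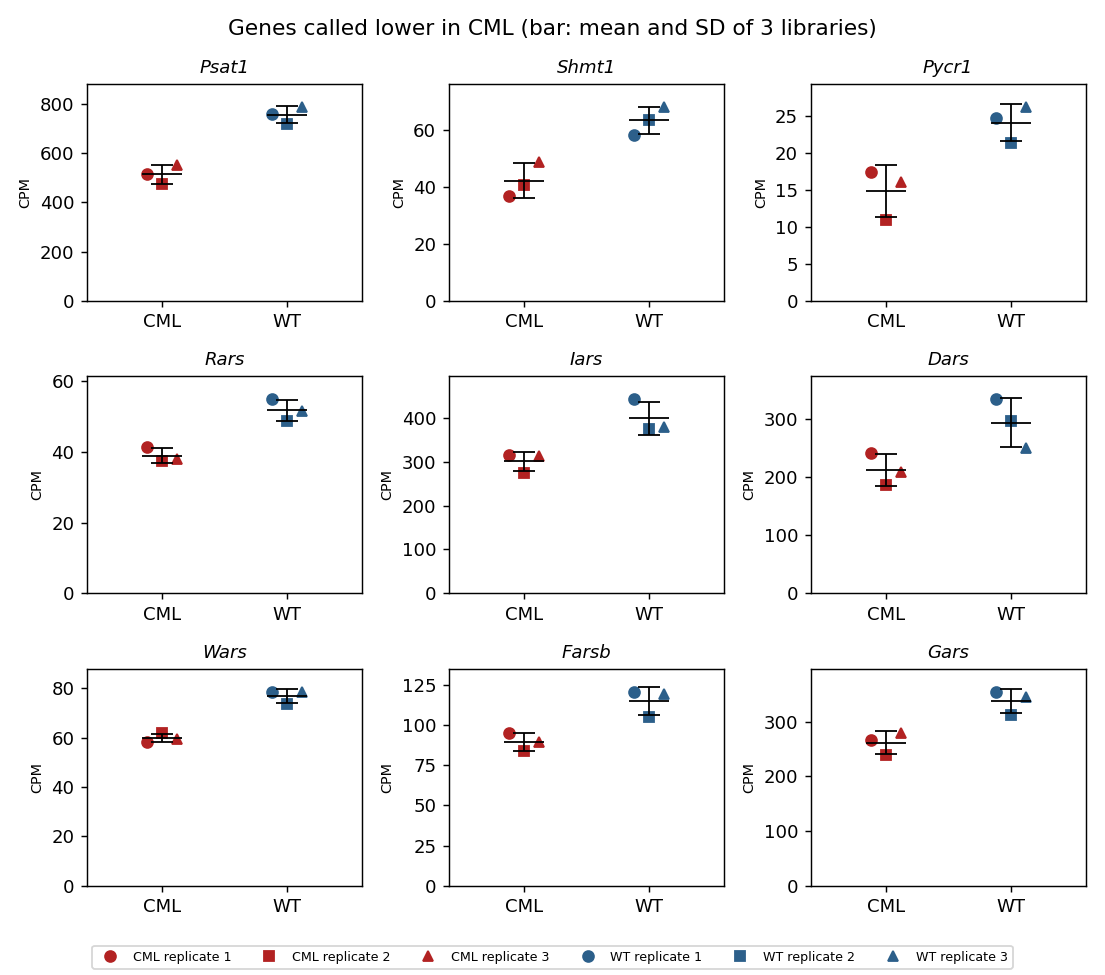
CPM of the 9 genes that passed the test, 1 panel per gene with its own vertical axis from 0, with the 3 CML and 3 WT libraries as symbols and the mean and SD of each group as bars. In every panel the CML libraries lie below the WT libraries, and Dars has the narrowest gap relative to its level (241 against 249 CPM).

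Of the 8 synthetases of the multisynthetase complex (Eprs, Iars, Lars, Mars1, Qars, Rars, Kars and Dars), 3 were lower in CML (37.5%, against 7.20% of all tested genes). None was higher, and the median log2 fold change was -0.21. Iars, Rars and Dars were those 3, also the only ones at an unadjusted p under 0.05 in edgeR, by DESeq2 and by limma-voom. None of them passed the test with scaling by library totals alone. Their auxiliary proteins Aimp1, Aimp2 and Eef1e1 gave no call in edgeR, with a median of -0.24. DESeq2 and limma-voom were not examined for these 3 genes. Eef1e1 was the 1 gene at an unadjusted p under 0.05 (log2 fold change -0.38, edgeR adjusted p 0.072). Aimp1, with the highest level per kilobase of the 3 (24.1 CPM), had a log2 fold change of -0.09.

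For the 17 mitochondrial synthetases, which charge transfer RNAs for mitochondrial translation, 3 were lower in CML (17.6%, against 7.20% of all tested genes). None was higher. The median was -0.11, near 0 at -0.01 with scaling by library totals alone. Mars2, for the mitochondrial methionyl enzyme, measured 65.9, 54.0 and 64.4 CPM in CML and 91.9, 96.9 and 93.6 CPM in WT. Its groups were well apart (log2 fold change -0.62, edgeR adjusted p 0.00294). At an unadjusted p under 0.05 in edgeR, 5 of the 17 were lower and none higher, beside 5144 of all 16221 tested genes in either direction. DESeq2 and limma-voom were examined only for the 3 genes that edgeR called, and both called all 3 lower. Nars2 (-0.51, edgeR adjusted p 0.0151) and Yars2 (-0.48, edgeR adjusted p 0.0234) were the other genes called. Rars2, which had the highest level per kilobase of the list at 23.6 CPM, had a log2 fold change of -0.16 and did not pass the test.

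None of the 6 ATF4 and stress regulator genes passed the test in edgeR, DESeq2 or limma-voom, and 1 (Ddit4) had an unadjusted p under 0.05 in edgeR. With scaling by library totals alone, edgeR called Ddit4 higher (adjusted p 0.0426). Their median log2 fold change was 0.09, with values from -0.10 to 0.34. Their summed level was 829, 643 and 693 CPM in CML and 708, 659 and 799 CPM in WT, so the sums overlapped.

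Atf4 encodes the transcription factor itself and had the highest level per kilobase of this group (219 CPM). It measured 402, 336 and 357 CPM in CML and 392, 359 and 418 CPM in WT. The ranges overlapped, with means of 365 ± 33.7 and 389.9 ± 29.7 CPM (SD, n = 3 each) and a log2 fold change of -0.10 (SE 0.12, edgeR adjusted p 0.627). Trib3, a pseudokinase gene that ATF4 activates and that dampens its response, measured 229, 131 and 149 CPM in CML and 154, 142 and 191 CPM in WT. CML replicate 1 was the highest and CML replicate 2 the lowest of the 6 libraries for Trib3. The log2 fold change was 0.06 (SE 0.21, edgeR adjusted p 0.869), and without CML replicate 1 it was -0.22.

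Ddit4 encodes REDD1, an inhibitor of mTORC1 signalling. It measured 51.3, 61.6 and 56.9 CPM in CML and 44.1, 39.7 and 49.9 CPM in WT. All CML libraries were above all WT libraries, with a log2 fold change of 0.34 (SE 0.13, edgeR adjusted p 0.0808). The other 3 regulators were Chac1, a glutathione-degrading enzyme gene, Ddit3, which encodes CHOP, and Atf5, a related transcription factor gene. Their groups overlapped, with log2 fold changes of 0.27, 0.11 and -0.10. The Ddit3 gene overlaps Mars1 by 68 bases, and Atf5 overlaps Nup62 by 571 bases.

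Upstream of ATF4, the list of eIF2 kinases, phosphatase subunits and their regulators had 9 tested genes, of which 1 was lower in CML (11.1%, against 7.20% of all tested genes). That gene was Eif2s1, the alpha subunit of eIF2 and the gene of highest level per kilobase in the list at 57.2 CPM (log2 fold change -0.36, edgeR adjusted p 0.0467). Its call was lost in 6 of the 14 alternative settings. Among these were library totals alone (edgeR adjusted p 0.119) and a mean of at least 50 counts (edgeR adjusted p 0.0523). The kinase genes Eif2ak1, Eif2ak2, Eif2ak3 (PERK) and Eif2ak4 (GCN2) had log2 fold changes of 0.31, -0.32, 0.06 and -0.18 and none passed the test. RNA levels carry no measure of eIF2 phosphorylation.

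Among the 21 tested genes of the list of other reported ATF4 targets, 4 were lower in CML (19.0%, against 7.20% of all tested genes). In the other direction, 1 was higher (4.76%, against 10.2% of all tested genes). The median was -0.15. Slc7a11, the cystine transporter, measured 142, 113 and 121 CPM in CML and 279, 242 and 184 CPM in WT. It was called at a log2 fold change of -0.91 (edgeR adjusted p 0.00166), a larger change than that of any of the 36 genes. Vldlr (-0.49), Xpot, which exports transfer RNA from the nucleus (-0.36), and Gdf15 (-0.82) were the other lower genes. Ero1l, an oxidase of the endoplasmic reticulum, was called higher (log2 fold change 0.85, edgeR adjusted p 0.0477). It measured 974, 2056 and 1485 CPM in CML and 976, 818 and 709 CPM in WT, and its groups overlapped. DESeq2 called it higher and limma-voom did not. Ero1l had the highest level per kilobase of the list (265 CPM).

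Of 12 endoplasmic reticulum stress genes outside the ATF4 branch, 3 were lower in CML (25.0%, against 7.20% of all tested genes) and none was higher. These were the chaperone gene Hsp90b1 (log2 fold change -0.61, edgeR adjusted p 0.0104), Dnajc3 (-0.45, edgeR adjusted p 0.0117) and the transcription factor gene Xbp1 (-0.49, edgeR adjusted p 0.0386). Hsp90b1 also had the highest level per kilobase of that list (142 CPM). The median of the 12 was -0.18, from -0.31 to -0.11 with 1 library left out and -0.083 with library totals alone. At an unadjusted p under 0.05 in edgeR, 4 of the 12 were lower and 2 higher, beside 5144 of all 16221 tested genes in either direction. DESeq2 and limma-voom were examined only for the 3 genes that edgeR called, and both called all 3 lower.

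In the serine, asparagine and proline group, Psat1 and Pycr1 were lower in CML and the other 4 genes did not pass the test. With scaling by library totals alone both calls remained. The median log2 fold change of the 6 genes was -0.11, with values from -0.70 to 0.15.

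Psat1 encodes phosphoserine aminotransferase, the middle enzyme of serine synthesis, on chromosome 19 (15904678 to 15947337). At 243 CPM per kilobase it had the highest level of the 36 genes by length. It measured 514, 476 and 552 CPM in CML replicates 1 to 3 and 760.4, 719 and 788 CPM in WT replicates 1 to 3. The groups were far apart relative to their spread, with means of 514 ± 37.6 and 756 ± 35.0 CPM (SD, n = 3 each). WT had 1.47 times as much, a log2 fold change of -0.56 (SE 0.12) with an edgeR adjusted p of 0.00594, the lowest of the 36 genes.

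Phgdh, for the first enzyme of the same pathway, measured 342, 272 and 315 CPM in CML and 237, 259.7 and 338 CPM in WT. The groups overlapped, and the sign of the fold was positive (log2 fold change 0.15, SE 0.15, edgeR adjusted p 0.505). Psph, for the last enzyme, had a log2 fold change of 0.05 (edgeR adjusted p 0.830). Of the 3 serine synthesis genes, then, Psat1 passed the test and the genes on either side of it in the pathway did not.

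The ratio of Psat1 to Phgdh within a library does not depend on how the libraries are scaled. It was 1.50, 1.75 and 1.75 in CML and 3.21, 2.77 and 2.33 in WT. The ratio was lower in each CML library than in any WT library, with means of 1.67 ± 0.144 and 2.77 ± 0.439 (SD, n = 3 each). The difference on the log2 scale was -0.72, and between -0.84 and -0.61 with any 1 library left out. The exact two-sided permutation p was 0.1, the smallest that 3 libraries against 3 can give, and 0.1 after adjustment over the 3 ratios compared. The 3 ratios were chosen after the values had been seen.

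Asns, asparagine synthetase, measured 281, 239 and 284 CPM in CML and 348, 288 and 335 CPM in WT, with 284 and 288 as the nearest values of the groups. They did not overlap, but the log2 fold change of -0.27 (SE 0.12) did not pass the test (edgeR adjusted p 0.143). Asns is one of the classical ATF4 targets and carries the element in its promoter, as printed above.

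Pycr1 encodes a mitochondrial reductase that completes proline synthesis, on chromosome 11 (120635712 to 120643769). It was a low-level gene, at 6.70 CPM per kilobase. It measured 17.5, 10.9 and 16.1 CPM in CML and 24.8, 21.4 and 26.3 CPM in WT. CML replicate 2 was the lowest, and the groups did not overlap. The log2 fold change of -0.70 (SE 0.18, edgeR adjusted p 0.0168) was the most negative of the 36 genes. Without CML replicate 2 it was -0.52 with an edgeR adjusted p of 0.062, so the call was lost in that fit. Fewer genes were called lower over the whole table in that fit too (675 against 1168 with all libraries). Why the call was lost was not tested.

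Aldh18a1, for the synthase that opens proline synthesis from glutamate, did not pass the test (log2 fold change 0.06, edgeR adjusted p 0.776). The ratio of Pycr1 to Aldh18a1 was 0.0961, 0.0660 and 0.0819 in CML and 0.142, 0.136 and 0.137 in WT. The groups did not overlap. The log2 difference was -0.79, between -0.91 and -0.64 with any 1 library left out, with the same exact permutation p of 0.1.

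In the list of other proline, glutamate and serine genes, 10 were tested, of which 1 was called higher in CML. Aldh4a1, which breaks down proline, measured 11.5, 17.9 and 16.2 CPM in CML and 8.84, 8.46 and 8.22 CPM in WT. It was higher in all CML libraries (log2 fold change 0.84, edgeR adjusted p 0.00785). The median of the 10 genes was -0.05.

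Of the 4 folate one-carbon enzymes, Shmt1 was lower in CML and the other 3 did not pass the test. Shmt1 is the cytosolic serine hydroxymethyltransferase, on chromosome 11 (60788104 to 60811718). It measured 36.8, 40.4 and 48.8 CPM in CML and 58.2, 63.4 and 67.9 CPM in WT. The groups did not overlap, and means were 42.0 ± 6.14 and 63.2 ± 4.89 CPM (SD, n = 3 each). WT had 1.50 times as much, a log2 fold change of -0.59 (SE 0.13) with an edgeR adjusted p of 0.00819. Shmt1 overlaps Smcr8 by 184 bases.

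Shmt2 is the mitochondrial counterpart and had the highest level per kilobase of the 4 (95.2 CPM). It measured 199, 186 and 232 CPM in CML and 214, 211 and 266 CPM in WT. The ranges overlapped (log2 fold change -0.16, SE 0.13, edgeR adjusted p 0.431). Mthfd2, the mitochondrial enzyme that follows Shmt2, measured 196, 187 and 212 CPM in CML and 193, 173 and 225 CPM in WT. Its group means of 198 ± 13.0 and 197 ± 26.3 CPM (SD, n = 3 each) were close, with a log2 fold change of 0.01 (SE 0.12, edgeR adjusted p 0.967). The cytosolic enzyme Mthfd1 had a log2 fold change of -0.09 (edgeR adjusted p 0.717). Mthfd1 overlaps the gene model Gm34868 by 19090 bases and Shmt2 overlaps Ndufa4l2 by 32 bases.

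The ratio of Shmt1 to Shmt2 was 0.185, 0.217 and 0.210 in CML and 0.272, 0.300 and 0.256 in WT. Each CML library had a lower ratio than each WT library. The log2 difference was -0.44, between -0.49 and -0.37 with any 1 library left out, and the exact permutation p was again 0.1.

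Of 13 tested genes in the list of other folate one-carbon genes, 3 were lower in CML (23.1%, against 7.20% of all tested genes). In the other direction, 2 were higher (15.4%, against 10.2% of all tested genes). Lower were Gcsh and Dld, subunits of the glycine cleavage system, and Aldh1l2, the mitochondrial formyl-folate dehydrogenase. Gcsh measured 33.5, 28.2 and 31.8 CPM in CML and 66.0, 57.3 and 55.2 CPM in WT. The groups were far apart (log2 fold change -0.93, edgeR adjusted p 2.78e-04). Aldh1l2 had a log2 fold change of -0.73 (edgeR adjusted p 0.0033) and Dld of -0.57 (edgeR adjusted p 0.00723). Dld is shared with other mitochondrial dehydrogenases and had the highest level per kilobase of the list (70.2 CPM). The cytosolic formyl-folate dehydrogenase Aldh1l1 was higher in CML, at 9.04, 13.1 and 10.8 CPM against 4.36, 5.05 and 6.35 CPM (log2 fold change 1.06, edgeR adjusted p 0.00424). Tyms, thymidylate synthase, was also higher, at 139, 131 and 137 CPM against 95.6, 95.5 and 95.5 CPM (log2 fold change 0.50, edgeR adjusted p 0.00499). Gldc and Amt, the other glycine cleavage genes, had too few counts to test.

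**Figure D3:**
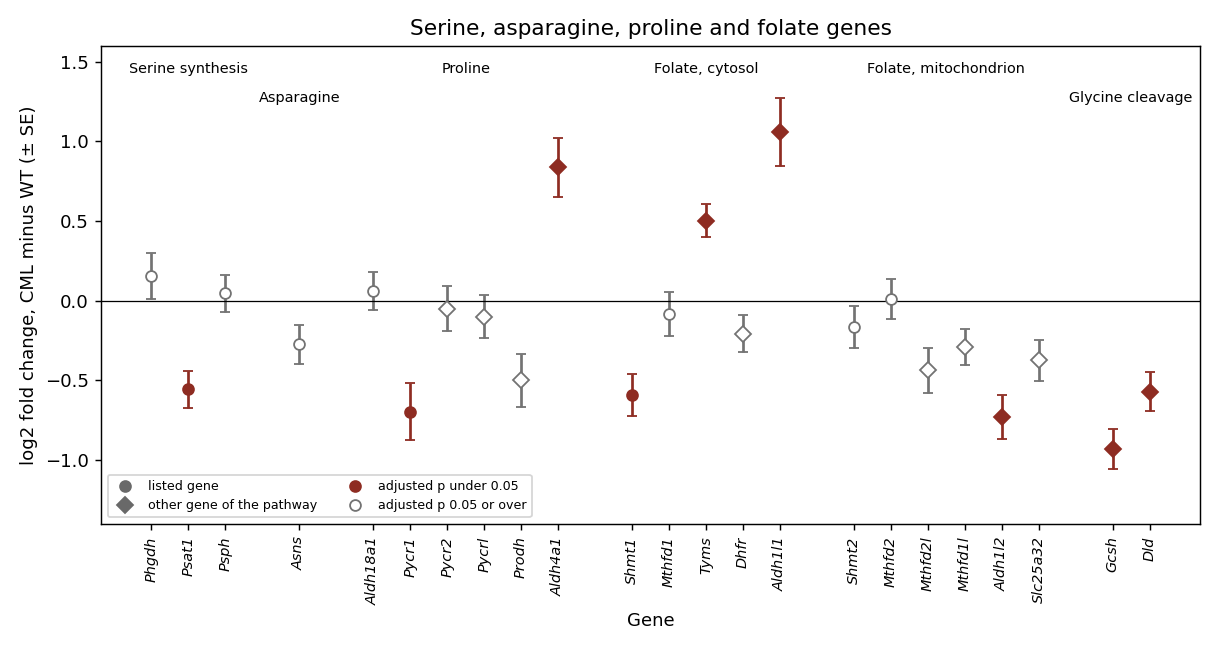
log2 fold change (CML minus WT) with its SE for genes of serine, asparagine, proline and folate metabolism, with circles for the listed genes and diamonds for other genes of the pathway, filled where the adjusted p was under 0.05. In the serine, proline and both folate blocks, filled and open symbols stand side by side: Psat1 (-0.56) between Phgdh and Psph, Pycr1 (-0.70) beside Aldh18a1, and Shmt1 (-0.59) with Shmt2 open.

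The calls on the 36 genes differed in how firmly they held. Psat1 and Shmt1 were called under all 14 alternative settings, which included other scalings, tests and filters and leaving out each library in turn. Pycr1 lost its call once, without CML replicate 2. The 6 synthetase genes lost their calls with scaling by library totals alone, and in each of the fits that left out CML replicate 2 or 3 or WT replicate 1 or 2. Without CML replicate 2, edgeR adjusted p-values of these 6 ran from 0.0851 for Wars to 0.198 for Gars. No called gene changed sign under any of the 14. Without WT replicate 3, 10 genes were lower and 2 higher, with Nars, Aars and Ddit4 added.

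CML replicate 2 had the lowest level of the 6 libraries for 18 of the 36 genes, and for 17.2% of all tested genes. WT replicate 3 had the highest level for 20 of the 36, and for 17.4% of all tested genes. CML replicate 2 also had the highest summed mast cell and basophil markers (7289 CPM), and its part in the lower levels was not tested.

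**Figure D4:**
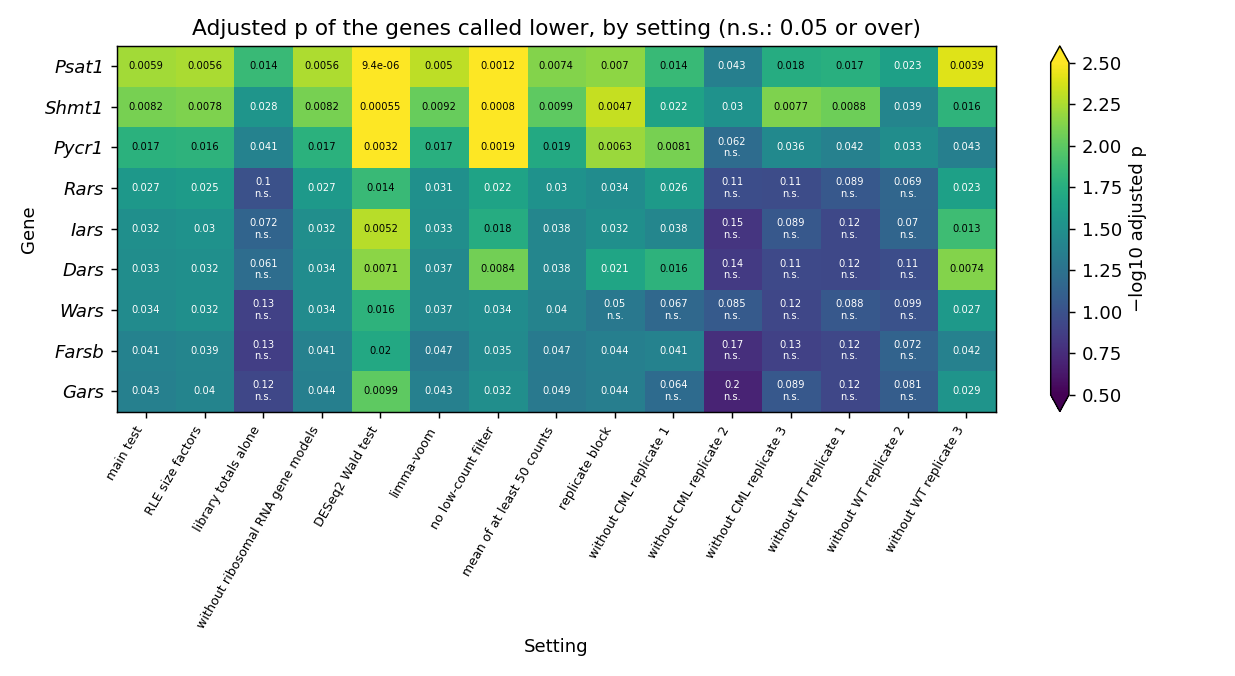
Adjusted p of the 9 genes (rows) in the main test and under the 14 alternative settings (columns), with the value printed in each cell, n.s. for 0.05 or over, and colour on a −log10 scale. Psat1 and Shmt1 have no n.s. cell, Pycr1 has 1, and the 6 synthetase genes have n.s. cells under library totals alone and in 4 or 5 of the 6 columns that leave a library out, and Wars also under the replicate block.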

How the data were processed

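RNA of 3 CML and 3 WT libraries was read from a table in which the authors deposited estimated counts per gene, not scaled to a common total. Between 33.9% and 36.0% of the values of a library were not whole, and they were rounded before use. The submitters' processing notes list STAR 2.7.3a, Partek 8.0 and the build mm10, without roles. For the annotation, the strand setting and shared reads, the steps were not given in the sources used here. Titles gave group and replicate number. No label says whether replicates came from separate animals or cultures, so a p-value reflects only the spread among these libraries, possibly a technical one.

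Genes were filtered with filterByExpr (minimum count 10) in edgeR 4.0.16 (R 4.3.3), which left 16221 genes. The quasi-likelihood F test (TMM, robust, two-sided) had group as its only term, with Benjamini-Hochberg adjustment over all 16221 genes and a threshold of 0.05. SEs were derived from the fold change and F. Levels per kilobase used the longest protein-coding transcript of GENCODE M21. Coordinates are on GRCm38. Alternatives were RLE factors, library totals alone, removal of 4 ribosomal RNA gene models, DESeq2 1.42.0, limma-voom 3.58.1, no low-count filter, a mean of at least 50 counts, a replicate block and each library left out. The within-library ratios were added after the data were seen. The procedure was tested on simulated data.

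The 36 genes and the other gene lists were chosen with earlier results of these data known. Values in every library are given for called genes, for those with adjusted p from 0.05 to 0.1 and for the 2 genes of each role with the highest level per kilobase. Lists are described by up to 3 called genes with the lowest adjusted p and the gene of highest level. Any other gene was named after its values were seen. Results that need a few genes of these lists are not reported here.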

Additional observations from a re-analysis of the deposited data

How the results depend on the processing

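The 14 alternatives changed no sign among the 9 called genes, and Psat1 and Shmt1 passed the threshold in each. With scaling by library totals alone, 732 genes were lower in CML, 3 of the 36 were lower and 2 higher, and 0 synthetases were lower and 1 (Aars) was higher. In that scaling the median log2 fold change of all genes was 0.09, and medians were -0.0015 for the 36 genes, -0.031 for the synthetases, 0.18 for the stress regulators, -0.017 for the serine, asparagine and proline genes, -0.030 for the 4 folate enzymes, -0.11 for the multisynthetase complex, -0.083 for the endoplasmic reticulum stress list, -0.14 for the auxiliary proteins, -0.0060 for the mitochondrial synthetases, 0.043 for the eIF2 list, -0.055 for other ATF4 targets, -0.11 for other folate genes and 0.043 for other proline and glutamate genes. Kars (0.033), Sars (0.046), Atf4 (0.00066) and Mthfd1 (0.0091) changed sign in it. With DESeq2 and with no low-count filter, the median of other folate genes was -0.315 and -0.321. These 2 medians also took in genes with too few counts for the main test. In the same settings Hars (-0.0073 and -0.013), Yars (-0.018 and -0.024) and Mthfd2 (-0.015 and -0.021) changed sign. With each library left out in turn, 455 to 2101 genes were lower and 1011 to 2021 higher, 2 to 10 of the 36 lower and 0 to 2 higher, 0 to 7 synthetases lower and 1 to 2 serine, asparagine and proline genes lower. Left-out medians ran from -0.14 to -0.00070 for the 36 genes, -0.18 to -0.053 for the synthetases, -0.069 to 0.20 for the stress regulators, -0.19 to -0.064 for the serine, asparagine and proline genes, -0.21 to -0.029 for the 4 folate enzymes, -0.28 to -0.14 for the multisynthetase complex, -0.097 to -0.025 for the eIF2 list, -0.19 to -0.090 for other ATF4 targets, -0.29 to -0.17 for other folate genes, -0.31 to -0.11 for the endoplasmic reticulum stress list, -0.30 to -0.16 for the auxiliary proteins, -0.19 to 0.029 for the mitochondrial synthetases and -0.11 to 0.035 for other proline and glutamate genes. Left-out log2 fold changes crossed 0 for Cars (-0.0066 to 0.17), Farsa (-0.22 to 0.033), Hars (-0.084 to 0.080), Kars (-0.11 to 0.0066), Mars1 (-0.015 to 0.18), Qars (-0.21 to 0.035), Sars (-0.11 to 0.051), Yars (-0.058 to 0.095), Atf5 (-0.21 to 0.020), Trib3 (-0.22 to 0.22), Psph (-0.0043 to 0.12), Aldh18a1 (-0.016 to 0.13) and Mthfd2 (-0.082 to 0.11). Apart from the added low-count genes and the smaller number of libraries in a left-out fit, the cause of these shifts was not tested. Of the 19 other pathway genes called, 7 kept the call in all 14 (Mars2, Slc7a11, Tyms, Aldh1l1, Aldh1l2, Gcsh and Aldh4a1). With the replicate number as a block, 8 of the 36 were lower, as Wars reached an edgeR adjusted p of 0.0502. The same-numbered libraries did not deviate together (correlations of -0.03, -0.04 and 0.01), so the numbers were not taken to pair them. Gldc and Amt had too few counts in these libraries to be tested.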
